A study of Homo sapiens with 12 samples.

Results

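The AKT kinases and the core of the mTOR pathway were followed through maps of acetylated messenger RNA in human keratinocytes. The 8 genes were AKT1, AKT2, AKT1S1, MTOR, RPTOR, RICTOR, TSC1 and TSC2, taken by gene symbol from 6 peak lists, and a gene missing from a list was given 0 peaks. Of the 10870 genes that carry a peak somewhere in the lists they are 8, and they hold 116 of 61804 peaks. AKT1 was chosen by its measured fold and its presence, a strong peak in every list, so both are given as description and were not tested. The samples were HaCaT cells, an established and immortalised keratinocyte line, that received either NAT10 overexpression plasmids or an empty vector. RNA bearing N4-acetylcytidine (ac4C) was immunoprecipitated (IP) from total RNA and sequenced beside the input RNA, with 3 replicates per group and 12 libraries in all. NAT10 is the acetyltransferase that writes ac4C. Each replicate gave 1 peak list, called overexpression list 1, 2 or 3 and control list 1, 2 or 3 here. The labels do not say whether replicates were separate cultures or whether the cells derive from 1 clone, so p-values measure only the spread between these lists, which may be technical.

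AKT kinases are activated downstream of phosphoinositide 3-kinase (PI3K) at the plasma membrane and phosphorylate proteins that control survival, growth and metabolism. The TSC1-TSC2 complex holds the small GTPase RHEB in its inactive form, and AKT relieves that brake by phosphorylating TSC2. MTOR is the kinase of a pair of complexes: mTORC1, built on the scaffold RPTOR (raptor), drives protein synthesis, and mTORC2, built on RICTOR, phosphorylates AKT. In the epidermis this pathway takes part in keratinocyte growth, barrier formation and wound repair.

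Of the members, AKT1, AKT2 and RICTOR had peaks that overlap a window around an annotated start, and those windows are shown because peaks with some of the highest AKT1 folds reach into them. Each window runs from 250 bases before to 50 bases after a RefSeq start (GRCh38.p14), 5′ to 3′ on the strand of the gene, which is the minus strand for all of them. Capitals mark the bases inside a deposited peak. The first is the upstream AKT1 start at chr14:104795699-104795998, with the peak of control list 3, whose ends are also those of overexpression list 3. The second is the window of a downstream AKT1 start at chr14:104793552-104793851, with the peak of overexpression list 2, which stops 47 bases before the start itself. Next come the upstream AKT2 start at chr19:40285296-40285595 and a downstream AKT2 start at chr19:40265302-40265601, and last the RICTOR start at chr5:39074350-39074649, all with the peak of control list 3.
AKT1 upstream start: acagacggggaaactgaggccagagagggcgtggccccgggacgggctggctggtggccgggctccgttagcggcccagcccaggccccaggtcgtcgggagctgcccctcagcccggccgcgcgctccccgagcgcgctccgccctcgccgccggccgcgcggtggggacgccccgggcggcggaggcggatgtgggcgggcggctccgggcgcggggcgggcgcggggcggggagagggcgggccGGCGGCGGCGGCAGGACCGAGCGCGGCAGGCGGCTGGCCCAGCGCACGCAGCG
AKT1 downstream start: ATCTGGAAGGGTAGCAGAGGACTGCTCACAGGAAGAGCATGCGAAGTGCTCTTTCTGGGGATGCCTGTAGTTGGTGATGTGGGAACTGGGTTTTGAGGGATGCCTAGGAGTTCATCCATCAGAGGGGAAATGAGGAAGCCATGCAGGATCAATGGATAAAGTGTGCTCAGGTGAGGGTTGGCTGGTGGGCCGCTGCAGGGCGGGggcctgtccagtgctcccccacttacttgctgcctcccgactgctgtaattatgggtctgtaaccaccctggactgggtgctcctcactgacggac
AKT2 upstream start: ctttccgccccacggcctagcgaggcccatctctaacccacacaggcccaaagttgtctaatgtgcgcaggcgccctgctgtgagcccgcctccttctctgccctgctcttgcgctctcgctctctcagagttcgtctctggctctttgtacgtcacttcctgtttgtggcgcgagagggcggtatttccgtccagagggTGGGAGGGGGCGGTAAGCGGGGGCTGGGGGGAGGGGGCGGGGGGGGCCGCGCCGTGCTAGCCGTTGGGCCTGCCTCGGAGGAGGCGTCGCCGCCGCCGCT
AKT2 downstream start: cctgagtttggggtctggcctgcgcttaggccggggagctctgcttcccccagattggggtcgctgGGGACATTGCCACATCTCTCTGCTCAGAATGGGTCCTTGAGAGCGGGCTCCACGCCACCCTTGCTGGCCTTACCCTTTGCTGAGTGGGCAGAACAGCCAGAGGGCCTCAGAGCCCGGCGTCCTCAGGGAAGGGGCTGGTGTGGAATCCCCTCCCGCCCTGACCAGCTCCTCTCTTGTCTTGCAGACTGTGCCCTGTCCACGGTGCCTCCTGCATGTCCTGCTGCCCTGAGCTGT
RICTOR start: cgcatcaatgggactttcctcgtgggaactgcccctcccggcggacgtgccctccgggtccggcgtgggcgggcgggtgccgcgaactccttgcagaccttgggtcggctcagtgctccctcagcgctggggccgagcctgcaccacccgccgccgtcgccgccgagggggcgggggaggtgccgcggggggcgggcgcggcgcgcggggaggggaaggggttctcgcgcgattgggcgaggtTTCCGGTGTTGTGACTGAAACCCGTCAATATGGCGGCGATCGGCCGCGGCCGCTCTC

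In the upstream AKT1 window, 53 bases lay in the peak, and 35.8% of them were cytosine and 84.9% cytosine or guanine. The downstream AKT1 window had 204 bases in the peak of overexpression list 2, of which 15.7% were cytosine. Over all 35116 windows the median cytosine content was 28%. Repeats of a cytosine followed by any pair of bases have been linked to ac4C, and 4 such units in a row, CNNCNNCNNCNN, were searched. On the sense strand the upstream AKT1 window held 7 overlapping matches, 1 of them within the peak and beginning at base 250 of the window, while the downstream AKT1 window held 0. The other strand held a match in both windows. On the sense strand 74.9% of all windows held a match and on either strand 90.3%, with a median of 2 on the sense strand, so a match in a whole window is common and marks no site. In the last 50 bases alone, 25.7% of all windows held a sense match. The upstream AKT1 window is not among these, as its match in the peak begins at base 250, just before that stretch. The other 250 bases lie before the annotated start, and their matches need not be in RNA from that start. The sense strand of the AKT2 windows held 3 matches at the upstream and 4 at the downstream start, and that of RICTOR held 10.

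AKT1, one of the isoforms of the AKT kinase, lies on chromosome 14 from 104769349 to 104795748 on the minus strand (gene identifier 207). The authors' fold is the linear enrichment of IP over background for a peak, and it is used here to describe and rank peaks within a list. The highest fold on AKT1 was 87.0, 54.3 and 36.9 in overexpression lists 1, 2 and 3, against 31.3, 39.5 and 44.5 in control lists 1, 2 and 3. By raw fold, overexpression list 1 was the highest and control list 1 the lowest, and the groups overlapped. Folds of different lists are not on 1 scale, so this order is no comparison of the groups. Ranked by highest fold, AKT1 stood 3rd of 5798 genes, 8th of 5949 and 35th of 2306 in overexpression lists 1, 2 and 3. It stood 45th of 3137, 274th of 7919 and 24th of 5956 in control lists 1, 2 and 3. Its percentile was thus between 96.6 and 99.97 in each list, and of the 677 genes with a peak in all 6 lists, 3 had a lowest percentile at or above that of AKT1, AKT1 included. AKT1 and RPTOR were the members with a peak in all 6 lists, as 6.23% of all genes had, and AKT2, AKT1S1 and MTOR had one in 5, where 20.5% of all genes had a peak in at least 5.

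**Figure D1:**
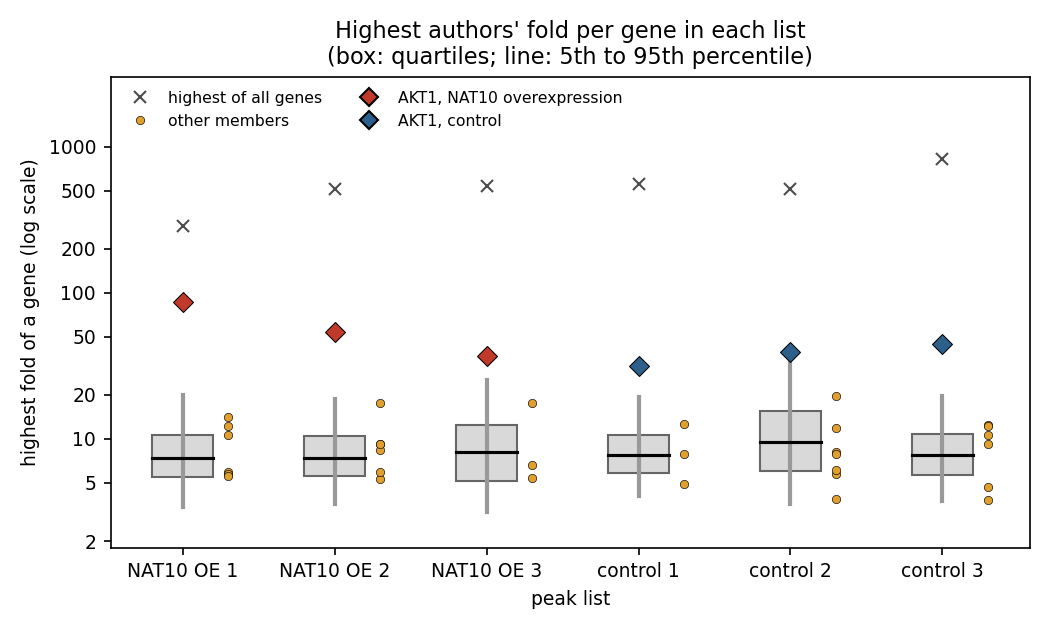
Highest authors' fold of each gene (vertical log axis) in the 3 NAT10 overexpression and 3 control lists. Grey boxes and lines give the quartiles and the 5th to 95th percentile over all genes of the list, the cross the highest gene, diamonds AKT1 and circles the other members with a peak. AKT1 lies above the 95th percentile in all 6 lists, while the other members reach at most 19.8.

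The genes most like AKT1, by the mean absolute difference in within-list percentile of the highest fold over 6 lists, were MTRNR2L12 (1.12 percentile points), ERCC1 (1.15), SAPCD2 (1.62) and SHF (1.84). MTRNR2L12 resembles mitochondrial ribosomal RNA, so its reads could come from near-identical copies. SAPCD2, a regulator of spindle orientation, ranked 12th, 6th and 231st in overexpression lists 1, 2 and 3, against 25th, 261st and 8th in control lists 1, 2 and 3. The likeness rests on rank alone.

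The AKT1 peaks fell at 4 positions, a position being peaks that overlap by at least 1 base. The strongest, near the upstream start, was held by overexpression lists 1 and 3 and by all 3 control lists. Its fold was 87.0 and 36.9 in overexpression lists 1 and 3, against 31.3, 39.5 and 44.5 in control lists 1, 2 and 3. All 5 peaks shared the end at 104795484, which is the downstream end on this strand. Their lengths were 264 and 268 bases in overexpression lists 1 and 3, and 182, 79 and 268 bases in control lists 1, 2 and 3. The peaks of overexpression list 3 and control list 3 covered the RefSeq start at 104795748 and ran 3 bases beyond it. That of overexpression list 1 stopped 1 base short of it, and those of control lists 1 and 2 began 83 and 186 bases downstream, outside the start window.

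Overexpression list 2 had no peak at that position. Its strongest AKT1 peak ran from 104793648 to 104794528, over 881 bases, with a fold of 54.3, between the upstream start and the downstream start at 104793601, which it did not reach. Control list 2 had a peak inside the same stretch, 254 bases long with a fold of 10.9, in addition to its peak near the upstream start. The deposited lists assign the peaks near the upstream start to transcript ENST00000349310 and these to ENST00000402615.

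The position held by every list ran from 104792598 to 104793482, with its centre 2708 bases into the gene. Its folds were 16.7, 18.5 and 12.5 in overexpression lists 1, 2 and 3, against 9.86, 15.7 and 15.8 in control lists 1, 2 and 3. The downstream end was 104792598 in all 6 lists, while the lengths were 885, 654 and 490 bases in overexpression lists 1, 2 and 3, against 863, 607 and 643 bases in control lists 1, 2 and 3. Groups overlapped in both fold and length. The weakest position, 129 bases long from 104780088 to 104780216, had the same ends in 3 lists, with a fold of 3.03 in overexpression list 2, against 6.49 and 6.45 in control lists 1 and 3.

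**Figure D2:**
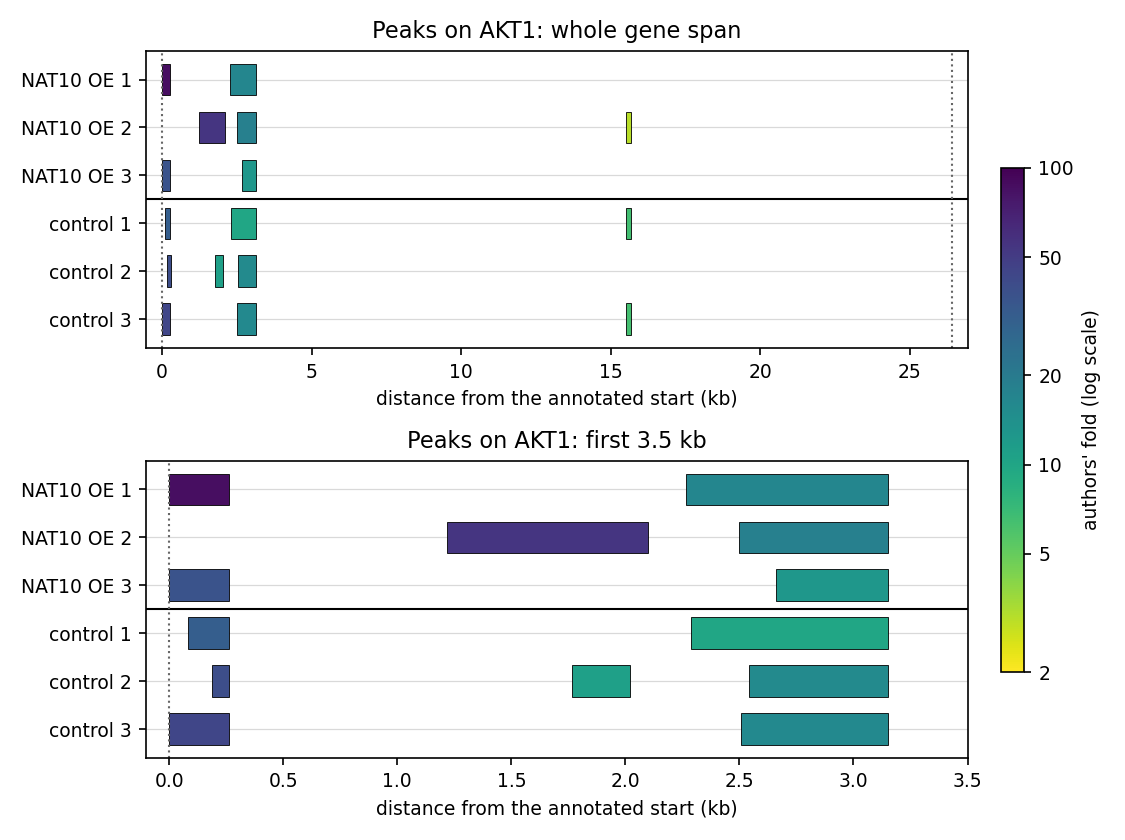
Peaks on AKT1 by distance from the annotated start in kb (horizontal axis), over the whole gene above and its first part below, with 1 row per list. Colour gives the authors' fold on a log scale, and short peaks are widened to stay visible in the upper map. Only overexpression list 2 lacks a peak at the position nearest the start, and all 6 lists hold the one centred 2708 bases into the gene.

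AKT1 carried 2, 3 and 2 peaks in overexpression lists 1, 2 and 3, against 3 in each of the 3 control lists. The mean was 2.33 ± 0.58 in overexpression and 3 ± 0 in control lists (SD, n = 3 per group, difference −0.67, two-sided exact permutation p = 0.4). Among peaks with a fold of at least 4, AKT1 had 2 in each overexpression list against 3 in each control list. There the groups did not overlap (difference −1, exact permutation p = 0.1), and the share of all genes doing so was not counted. Without overexpression list 2 the difference was also −1 (exact permutation p = 0.1). With 3 lists against 3 the smallest p is 0.1, so no single gene can pass 0.05. With all deposited peaks, adjusted over all 10870 genes by the Benjamini-Hochberg method, 0% had an adjusted p under 0.05. In that setting 0 genes had an unadjusted p under 0.05.

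**Figure D3:**
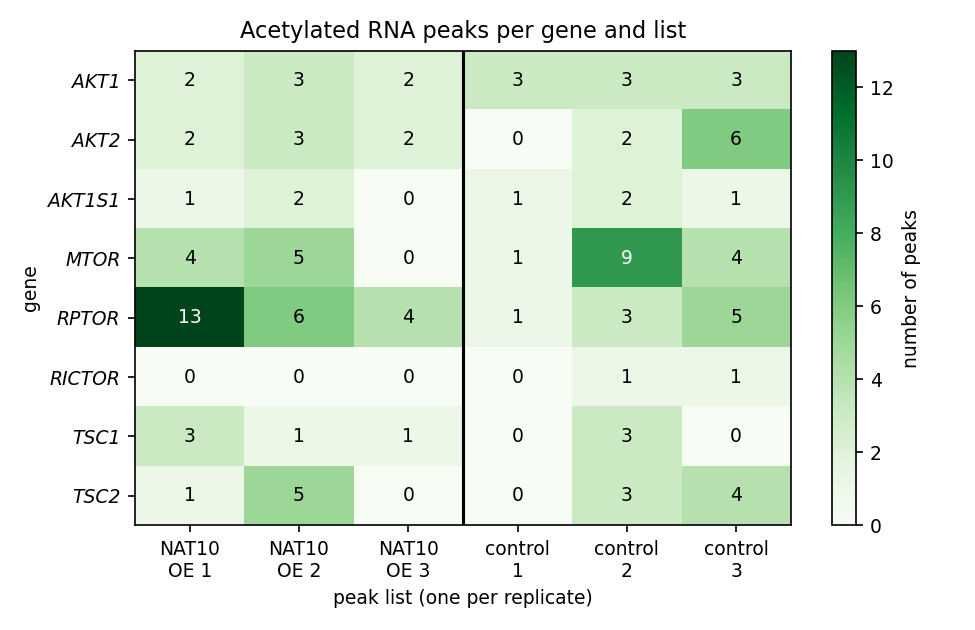
Number of peaks on each of the 8 genes (rows) in each list (columns, NAT10 overexpression left of the line and control right of it), with darker green for more peaks. RPTOR has the highest number, 13 in overexpression list 1, and RICTOR is at 0 in all 3 overexpression lists.

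AKT2, the isoform best known for its role in insulin-driven glucose uptake, lies on chromosome 19 from 40230317 to 40285345 (gene identifier 208). AKT2 had 2, 3 and 2 peaks in overexpression lists 1, 2 and 3, against 0, 2 and 6 in control lists 1, 2 and 3. The overexpression lists were close to each other and the control lists spanned them on both sides (2.33 ± 0.58 in overexpression and 2.67 ± 3.06 in control, SD, n = 3 per group, difference −0.33, exact permutation p = 1). The sign depended on the setting: the difference was 1.33 without control list 3, 0.133 per 1000 peaks of the list, and 1.33 with an equal number of peaks kept from each list, where every control list was at 0 (exact permutation p = 0.1). The share of all genes with non-overlapping groups in that last setting was not counted. The highest folds were 10.7, 17.6 and 5.39 in overexpression lists 1, 2 and 3, against 5.80 and 12.5 in control lists 2 and 3. In contrast to AKT1, no AKT2 position was held by more than 3 of 6 lists. Of its 9 positions, 3 were in lists of both groups, 3 in overexpression lists alone and 3 in control lists alone.

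The widest-held AKT2 position lay around the downstream start, from 40265222 to 40265535. Its folds were 10.7 in overexpression list 1, against 5.80 and 4.50 in control lists 2 and 3. The upstream AKT2 start was covered in control lists 2 and 3, with folds of 3.55 and 4.55. A peak of 129 bases from 40256926 to 40257054 had the same ends in overexpression lists 2 and 3, with folds of 4.57 and 5.39, and was in no control list. Of the 15 AKT2 peaks, 33.3% overlapped a start window, and of the 16 AKT1 peaks 31.2%, set beside 14.8% of 49543 peaks on all genes with such a window. Over the members with a window the share was 10.1% (11 of 109 peaks), with 0 of 23 on MTOR and 0 of 32 on RPTOR. These shares are description only. A position counts once for each list, AKT1 and AKT2 each have more than 1 window, and AKT1 was chosen for its strong peak. Overlap with a window need not reach the start: AKT1 peaks of overexpression list 2 and control list 2 lay 47 and 126 bases upstream of the downstream start.

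AKT1S1 encodes PRAS40, an AKT substrate that binds raptor and restrains mTORC1. The gene lies on chromosome 19 from 49869033 to 49878356 (gene identifier 84335). Its peaks numbered 1, 2 and 0 in overexpression lists 1, 2 and 3, against 1, 2 and 1 in control lists 1, 2 and 3 (difference −0.33, exact permutation p = 1). Without overexpression list 3 the difference was 0.167. All 7 peaks fell at 2 positions. One, 170 bases from 49871547 to 49871716, had the same ends in 3 lists, with a fold of 4.43 in overexpression list 2 against 4.95 and 8.09 in control lists 1 and 2. The other began at 49872917 in 4 lists, with folds of 5.96 and 9.29 in overexpression lists 1 and 2, against 4.03 and 12.3 in control lists 2 and 3. Both positions were thus in lists of both groups.

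RPTOR, the raptor scaffold that brings substrates to mTORC1, had the most peaks of the 8 genes, 32 over the 6 lists. It lies on the plus strand of chromosome 17 from 80544838 to 80966368 (gene identifier 57521). The gene carried 13, 6 and 4 peaks in overexpression lists 1, 2 and 3, against 1, 3 and 5 in control lists 1, 2 and 3. Overexpression list 1 was the highest and control list 1 the lowest, and the groups overlapped because control list 3 exceeded overexpression list 3. The mean was 7.67 ± 4.73 in overexpression and 3 ± 2 in control lists (SD, n = 3 per group, difference 4.67, exact permutation p = 0.2). Without overexpression list 1 the difference was 2 (exact permutation p = 0.4), and among peaks with a fold of at least 4 it was 3 (exact permutation p = 0.7). At that minimum RPTOR had 13, 3 and 2 peaks in overexpression lists 1, 2 and 3, against 1, 3 and 5 in control lists 1, 2 and 3. Only overexpression list 1 then exceeded every control list. With all deposited peaks, none of the 8 genes had non-overlapping peak numbers, where 0.386% of all genes had every overexpression list above every control list and 1.39% the opposite.

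Lists called separately differ in length, and overexpression list 3 is the shortest at 3105 peaks while control list 2 is the longest at 19261. Per 1000 peaks of its list, a scale chosen after the data were seen, RPTOR had 1.07, 0.495 and 1.29 peaks in overexpression lists 1, 2 and 3, against 0.231, 0.156 and 0.461 in control lists 1, 2 and 3. The groups did not overlap on this scale, though overexpression list 2 and control list 3 lay close together. The mean was 0.951 ± 0.410 in overexpression and 0.283 ± 0.159 in control lists (SD, n = 3 per group, exact permutation p = 0.1, adjusted p = 1). Of all genes, 1.92% had every overexpression list above every control list on this scale and 3.98% the opposite, and RPTOR was the only one of the 8 in either. Leaving out 1 list at a time kept the difference between 0.499 and 0.896 per 1000 peaks. With the same number of peaks kept from each list, the highest by score, RPTOR had 2, 1 and 4 in overexpression lists 1, 2 and 3, against 1, 0 and 1 in control lists 1, 2 and 3, which overlap.

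**Figure D4:**
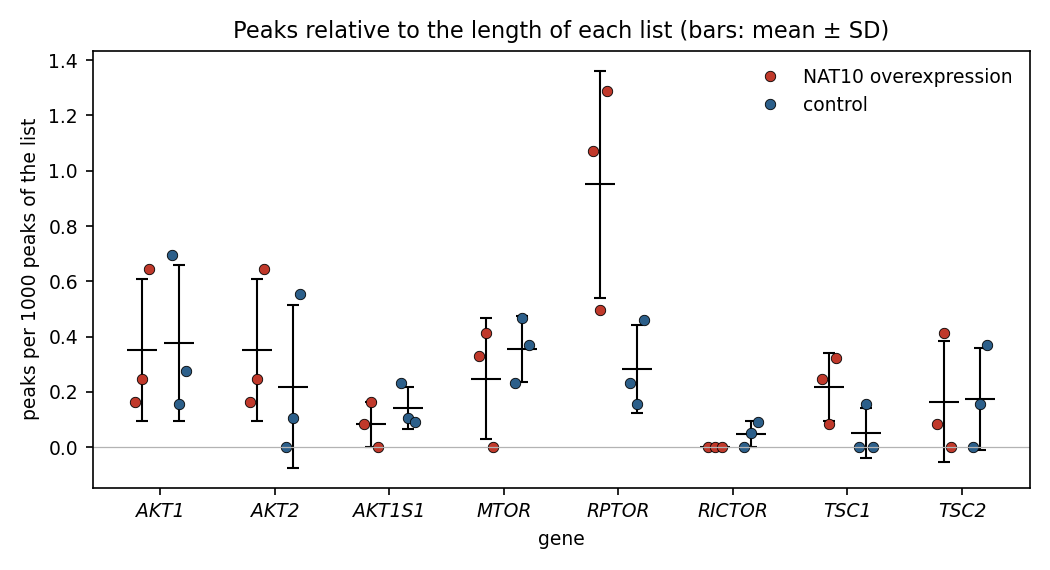
Peaks on each gene per 1000 peaks of the list (vertical axis) for the 3 NAT10 overexpression lists and the 3 control lists, with the mean and SD of each group as a bar. RPTOR is the only gene whose groups do not overlap, with 0.495 to 1.29 in overexpression and 0.156 to 0.461 in control lists.

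RPTOR peaks gathered toward the 3′ end of the gene. Of the 32, 27 lay in the last 25% of the RefSeq span and 1 in the first 25%, with the median at 90.1% of the span. Over all genes with a span and strand, 32.3% of 48880 peaks lay in the last 25% and 29.4% in the first 25%. The span includes introns, and exon positions were not used here. Of the 18 RPTOR positions, 5 were in lists of both groups, 11 in overexpression lists alone and 2 in control lists alone, with none of the 11 in all 3 overexpression lists. Most of the 11 included a peak of overexpression list 1, which held 13 RPTOR peaks. The share of such positions over all genes was not counted.

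One RPTOR position recurred in 5 of 6 lists with the same ends, 111 bases from 80925370 to 80925480. Its fold was 14.04, 9.23 and 17.6 in overexpression lists 1, 2 and 3, against 12.7 and 6.43 in control lists 1 and 3, and control list 2 had no peak there. This was the highest RPTOR fold in each overexpression list. Among the positions found in overexpression lists alone, 5 were in 2 lists each. One ran over 119 bases from 80908811 to 80908929 with the same ends in overexpression lists 1 and 2, at folds of 7.21 and 8.45. The longest peak on any of the 8 genes, 2107 bases from 80964262 to the RefSeq end of RPTOR at 80966368, was in overexpression list 1, with a fold of 6.05. Within it lay a 252-base peak of overexpression list 3 with a fold of 2.67.

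MTOR, the kinase itself, showed the opposite layout, with 16 of 23 peaks in the first 25% of its span. It lies on the minus strand of chromosome 1 from 11106535 to 11262551 (gene identifier 2475). MTOR had 4, 5 and 0 peaks in overexpression lists 1, 2 and 3, against 1, 9 and 4 in control lists 1, 2 and 3. The highest number was in the longest list and the lowest in the shortest, and the groups overlapped (3 ± 2.65 in overexpression and 4.67 ± 4.04 in control, SD, n = 3 per group, difference −1.67, exact permutation p = 0.7). Without control list 2 the difference was 0.5. The position at 11253839 to 11253973, 135 bases long, had the same ends in 5 lists. Its fold was 12.2 and 8.38 in overexpression lists 1 and 2, against 7.84, 7.67 and 10.6 in control lists 1, 2 and 3, and overexpression list 3 had no MTOR peak at all.

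A neighbouring MTOR position from 11255992 to 11256192 had the same ends in 3 lists, with folds of 8.25 and 7 in overexpression lists 1 and 2, against 5.24 in control list 3. The highest MTOR fold, 19.8, was in control list 2 at 11150126 to 11150226, where control list 3 had 5.96 and the overexpression lists had no peak. Of the 15 MTOR positions, 11 were seen in 1 list only. Within the span of MTOR, 3 lists also held a peak assigned to ANGPTL7, a gene inside it, and these did not overlap the MTOR peaks.

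**Figure D5:**
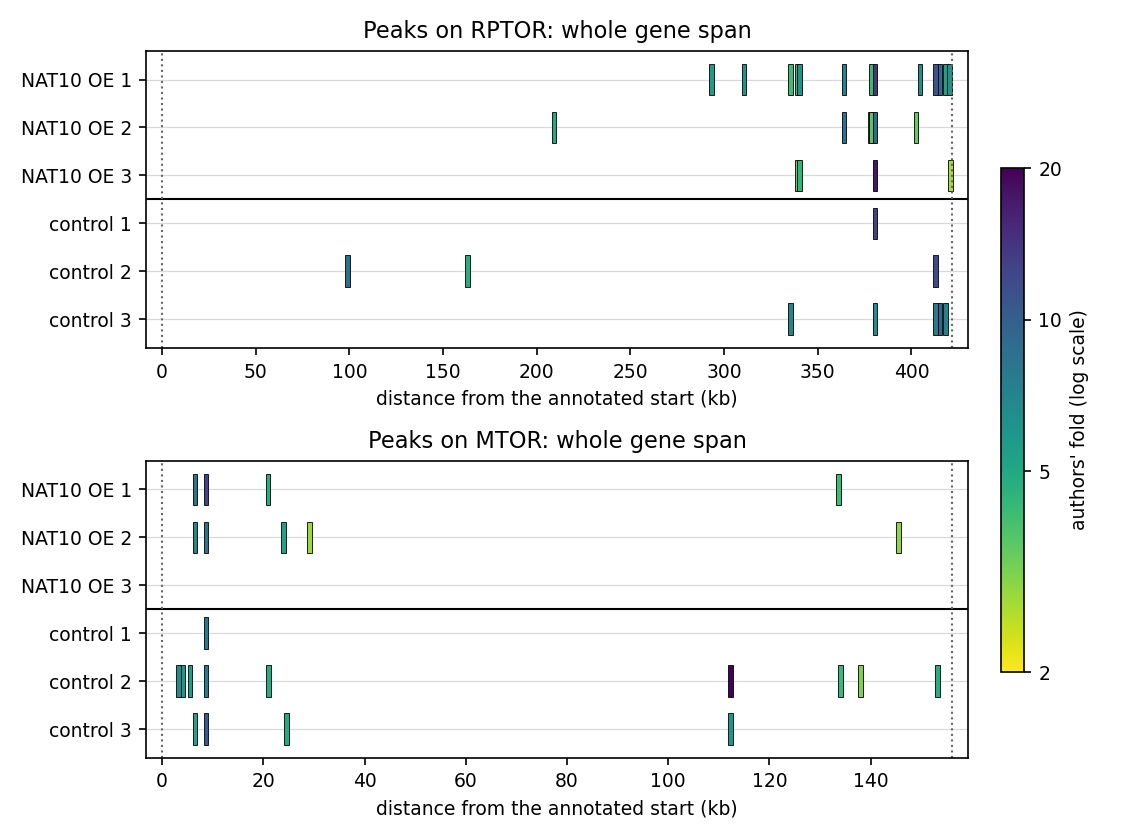
Peaks on RPTOR (top) and MTOR (bottom) by distance from the annotated start in kb (horizontal axis), with 1 row per list and dotted lines at the ends of the gene. Colour gives the authors' fold on a log scale, and peaks are widened to stay visible. RPTOR peaks crowd toward the far end, where 27 of 32 lie in the last 25%, and 16 of 23 MTOR peaks lie in the first 25%.

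RICTOR, the scaffold of mTORC2, had the fewest peaks of the 8 genes, 2 over all lists. It lies on chromosome 5 from 38937920 to 39074399 (gene identifier 253260). RICTOR had no peak in overexpression lists 1, 2 and 3, against 0, 1 and 1 in control lists 1, 2 and 3 (difference −0.67, exact permutation p = 0.4). The fold was 3.86 in control list 2 and 3.82 in control list 3, at different positions. Both fell below a fold of 4, so none remained at that minimum. The peak of control list 3 covered the start shown above and ran 7 bases beyond it.

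TSC1 and TSC2 encode hamartin and tuberin, the partners of the complex that restrains mTORC1. TSC1 lies on chromosome 9 from 132891349 to 132945378 (gene identifier 7248). TSC1 had 3, 1 and 1 peaks in overexpression lists 1, 2 and 3, against 0, 3 and 0 in control lists 1, 2 and 3 (1.67 ± 1.15 in overexpression and 1 ± 1.73 in control, SD, n = 3 per group, difference 0.67, exact permutation p = 0.6). Every overexpression list had a peak and control list 2 alone among the control lists, and without overexpression list 1 the difference was 0 and without control list 2 it was 1.67. The TSC1 folds ran from 3.45 to 6.68, and 7 of 8 peaks lay in the last 25% of the span. The only TSC1 position in more than 1 list, from 132903651 to 132903817, had folds of 3.48 and 5.31 in overexpression lists 1 and 2, against 6.16 in control list 2.

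TSC2 lies on the plus strand of chromosome 16 from 2047985 to 2089491 (gene identifier 7249). TSC2 had 1, 5 and 0 peaks in overexpression lists 1, 2 and 3, against 0, 3 and 4 in control lists 1, 2 and 3 (difference −0.33, exact permutation p = 1). The groups overlapped, and the shortest list of each group had none. The sign turned to 0.167 without overexpression list 1, 0.667 without overexpression list 3 and 0.5 without control list 3. The position at 2084228 to 2084715 was in 4 lists with a common end, at folds of 5.6 and 5.94 in overexpression lists 1 and 2, against 7.92 and 3.76 in control lists 2 and 3. A position near the start, from 2048587 to 2048753, had the same ends in overexpression list 2 and control list 2, with folds of 4.54 and 7.75. Neither TSC gene had a peak in a start window.

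Taking the 8 genes together, 7, 7 and 4 had a peak in overexpression lists 1, 2 and 3, against 4, 8 and 7 in control lists 1, 2 and 3. Among all genes with a peak, the shares were 53.3%, 54.7% and 21.2% in overexpression lists 1, 2 and 3, against 28.9%, 72.9% and 54.8% in control lists 1, 2 and 3. Fewest members had a peak in the shortest list of each group and most in the longest list, and no test was made over them. Peaks stood in more overexpression than control lists for 2 members, TSC1 and AKT2, in more control lists for 3 (RICTOR, MTOR and AKT1S1) and in equally many for 3. Of all genes with a peak these shares were 25.6%, 46.3% and 28.1%. The median difference in peaks was −0.33 over the members and −0.33 over all genes. Of 63 positions on the members, 30 were in 2 or more lists, and 22 were in lists of both groups. Of these 63, 22 were in overexpression and 19 in control lists alone, and none of the 22 was in all 3 overexpression lists. The matching shares of positions over all genes were not counted.

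Among the other genes of the pathway, 94 of 111 on a list of PI3K, AKT and mTOR pathway genes had a peak. Overexpression lists with a peak outnumbered control lists for 24 of the 94 (25.5%), and control lists outnumbered overexpression lists for 40 (42.6%), beside 25.6% and 46.3% over all genes. None of the 94 had an adjusted p under 0.05, which 3 lists against 3 cannot give. Leaving out 1 list moved the first count to 47 without overexpression list 3, 44 without control list 2 and 39 without control list 3, and the second to 61 without control list 1. In the amino acid sensing group, which brings mTORC1 to the lysosome, 11 of 22 genes leaned to overexpression lists and 6 to control lists. Among mTOR complex subunits these counts were 2 and 2 of 7, and among genes of mTORC1 output 4 and 9 of 16. They were 3 and 8 of 16 among PI3K subunits and their inputs, 2 and 5 of 12 among lipid phosphatases and AKT regulators, 1 and 4 of 11 among AKT substrates and the further isoform, and 1 and 6 of 10 around the TSC complex and RHEB.

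Peaks in all 6 lists were found on 6 of these 94 genes, FOXO3, FOXO4, MAPKAP1, PRR5, TELO2 and STK11, a share near the 6.23% of all genes. MAPKAP1 and PRR5 encode subunits of mTORC2. MAPKAP1 had highest folds of 10.5, 10.9 and 2.74 in overexpression lists 1, 2 and 3, against 15.9, 18.9 and 17.7 in control lists 1, 2 and 3. Folds of different lists are not on 1 scale and were not tested. PRR5 had 4, 1 and 4 peaks in overexpression lists 1, 2 and 3, against 1 in each control list. TELO2, which helps assemble MTOR and related kinases, had 5, 2 and 2 peaks in overexpression lists 1, 2 and 3, against 3, 5 and 6 in control lists 1, 2 and 3. FOXO3, a transcription factor that AKT keeps out of the nucleus, had highest folds of 9.83, 14.1 and 5.23 in overexpression lists 1, 2 and 3, against 7.72, 27.1 and 4.39 in control lists 1, 2 and 3. FOXO4, of the same family, had 7.61, 9.40 and 4.46 in overexpression lists 1, 2 and 3, against 6.07, 2.51 and 7.83 in control lists 1, 2 and 3. STK11, the kinase LKB1 that activates AMPK, had 6, 3 and 1 peaks in overexpression lists 1, 2 and 3, against 1, 3 and 4 in control lists 1, 2 and 3.

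A peak in at least 2 more overexpression than control lists was found on 4 of the 94, FLCN, FNIP2, TFEB and RRAGC, near the share of 3.79% over all genes. FLCN and FNIP2 form the folliculin complex that acts on RRAGC, a Rag GTPase, and TFEB is a lysosomal transcription factor that mTORC1 phosphorylates. FLCN had highest folds of 10.2, 7.59 and 7.41 in overexpression lists 1, 2 and 3, against 17.1 in control list 2 alone. FNIP2 had 7.54, 4.98 and 11.7 in overexpression lists 1, 2 and 3, against 15.4 in control list 2 alone. TFEB had 5.96, 15.96 and 9.91 in overexpression lists 1, 2 and 3, against 20.3 in control list 2 alone. RRAGC had 5.91 and 2.99 in overexpression lists 1 and 2 and no control peak. For the first 3 the control list with a peak was the longest of all lists.

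At least 2 more control than overexpression lists had a peak for 8 of the 94, near the share of 9.48% over all genes. Of all genes, 1.39% had fewer peaks in every overexpression list than in every control list, as PIK3C3 and PRKAG2 did. PIK3C3, the class III PI3K of autophagy, had no peak in overexpression lists 1, 2 and 3, against highest folds of 7.80, 9.91 and 12.0 in control lists 1, 2 and 3. PRKAG2, a regulatory subunit of AMPK, likewise had none, against 8.02, 10.6 and 17.8 in control lists 1, 2 and 3. FOXO1 had 13.4 in overexpression list 2, against 5.79, 44.4 and 5.25 in control lists 1, 2 and 3. EIF4EBP2, a translational repressor that mTORC1 phosphorylates, had 6.51 in overexpression list 2, against 2.89, 12.2 and 5.85 in control lists 1, 2 and 3. LAMTOR1, SLC38A9, SEC13 and SREBF1 had peaks in 2 control lists and no overexpression list.

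As a check of the labels, NAT10 carried 14, 14 and 15 peaks in overexpression lists 1, 2 and 3, against 1, 2 and 2 in control lists 1, 2 and 3. Of 18 keratinocyte markers 17 had a peak in some list, as did 1 of 7 markers of immune cells, 3 of 7 of endothelium, 2 of 8 of fibroblasts and 3 of 8 of melanocytes. The keratinocyte markers with a peak numbered 14, 13 and 2 in overexpression lists 1, 2 and 3, against 8, 14 and 14 in control lists 1, 2 and 3. A missing peak does not show that a gene was not transcribed. Lists held 3105 to 12157 peaks in overexpression and 4324 to 19261 in control. The files carry no numbers of reads, so the depth behind each list is unknown and its part in the peak numbers was not tested. In such bulk samples, fewer cells of a type and less marked RNA per cell cannot be told apart. The authors' false discovery rate, read as percent, was 29.6 or higher for every peak on the 8 genes. For the AKT1 peak of highest fold it was 100 in overexpression lists 1, 2 and 3 and in control lists 1 and 3, and 44.0 in control list 2. A rate of 100 is not particular to AKT1. In overexpression list 1 an MTOR peak with a score of 436.98 also had 100, while a TSC2 peak with a lower score, 98.84, had 59.55. Every peak of overexpression list 3 and control list 1, on any gene, had a rate of 100.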

How the data were processed

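Peaks of acetylated RNA were deposited as 6 lists limited to mRNA, 1 per replicate, and none was pooled. The tools named in the submitters' processing notes are HISAT2 2.0.4, cutadapt 1.9.3 and FastQC, with GRCh38 as build. Peak names carry MACS, whose version and settings were not given in the sources used here. Each peak has, per the file headers, the authors' score (a scaled negative log10 of its p-value), a fold enrichment (a linear ratio), a false discovery rate, read as percent because it runs up to 100, and a length. Starts count from 0 in the files and from 1 here. Lines emptied for this work, 2 in overexpression list 2 and 3 in control list 2, were not analysed here. Lists were mapped to samples by the replicate name in the titles of the IP samples.

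Peaks per gene were counted per list and tested two-sided by exact permutation over the 20 splits, with Benjamini-Hochberg adjustment over 10870 genes (Python 3.11.15, pandas 2.3.3). Gene spans and start windows are from RefSeq (GRCh38.p14), with 10 windows for 7 of the members. Named were the 8 members, the 5 genes most like AKT1 by rank (1 of them is not reported here), and pathway genes with a peak in all 6 lists or in at least 2 more lists of one group. Members and lists were chosen with earlier results of these data known. Alternatives were a fold of at least 4, an equal number of peaks per list, joining peaks within 100 bases, leaving out each list, the replicate block and, chosen after seeing the data, peaks per 1000 and leaving out a pair of lists.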

Additional observations from a re-analysis of the deposited data

How the results depend on the processing

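The AKT1 and RPTOR differences in peaks per list kept their sign under every alternative run, from −1 to −0.333 peaks for AKT1 and from 1.67 to 6.5 for RPTOR, or −0.0234 and 0.668 per 1000 peaks. With a fold of at least 4, however, only overexpression list 1 exceeded every control list for RPTOR. At that minimum AKT1 had 2 peaks in each overexpression list and 3 in each control list (exact permutation p = 0.1). Leaving out 1 list gave −1 to −0.5 for AKT1 and 2 to 6.5 for RPTOR. No exact permutation p fell below 0.1, the smallest that 3 lists against 3, or 3 against 2, can give. When each list was reduced to its 3105 peaks of highest score, the differences turned to 1.33 for AKT2 (exact permutation p = 0.1), 0.333 for MTOR and 0.333 for TSC2, and the number of members with a peak was 1.67 higher in overexpression lists, against −0.333 with all peaks and 0.333 with a fold of at least 4. With 3105 peaks per list, or with a fold of at least 4, the share of all genes with non-overlapping groups was not counted. Per 1000 peaks, AKT2 turned to 0.133. Leaving out 1 list gave −1.67 to 1.33 for AKT2, −0.833 to 0.167 for AKT1S1, −3.5 to 0.5 for MTOR and −1.83 to 0.667 for TSC2, and −1.5 to 0.667 for members with a peak. Without both overexpression replicate 1 and control replicate 2, the differences were 0.5 for TSC2, 0 for MTOR, 0 for AKT1S1 and 2 for RPTOR. Pathway genes in more overexpression lists ranged from 20 to 47 and those in more control lists from 30 to 61 when 1 list was left out. Asking for an overlap of 50% of the shorter peak left 30 recurring positions, and ranking by score left the AKT1 top position in 5 lists. Joining near peaks changed no value. Same-numbered lists did not deviate together (r of 0.0255, −0.0492 and 0.00534 across genes, which are not independent), so the numbers are not taken to pair the lists. With the replicate block the AKT1 difference is −0.667 by construction (exact permutation p = 0.5). No call was possible there, because 0.25 is the smallest p that 3 pairs can give. Read depth is unknown, so a missing peak is no evidence of absence.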
